A study of Mus musculus with 6 samples.

Results

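The cytosolic ribosomal protein genes are the genes for the proteins that, with ribosomal RNA, make up the large and the small subunit of the ribosomes of the cytoplasm. They were chosen by symbol alone, as symbols that begin with Rpl or Rps and a digit, plus Rplp0, Rplp1, Rplp2 and Rpsa, without the pseudogenes named with -ps and without the Rps6k kinases. The rule found 89 of the 34714 genes in the count table. Of these, 43 were proteins of the large subunit, 3 were proteins of its stalk and 31 were proteins of the small subunit. The other 12 were 11 paralogs and retrogenes of ribosomal proteins and Rps19bp1, a protein that binds Rps19 and is no part of the ribosome. Fau and Rack1 also make ribosomal proteins, but their symbols lie outside the rule.

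Expression was measured by bulk RNA sequencing of whole kidneys after unilateral ureteral obstruction (UUO), a surgical model of kidney scarring in which a tied ureter blocks the outflow of urine. The knockout group (KO) held 3 kidneys of miR-92b-/- mice, which lack the microRNA miR-92b in all cells and are on a C57BL/6JGpt background. The wild-type group (WT) held 3 kidneys of C57BL/6J mice. All mice were male and 8 weeks old at surgery, all had the left ureter ligated at 2 points under pentobarbital, and all kidneys were collected 10 days later. Every library therefore came from an operated kidney, and kidneys after sham surgery were not analysed here. The treatment label and the column names give UUO, although the treatment protocol calls the ligated kidneys nonfibrotic controls. The labels do not say whether WT mice were littermates of KO mice, nor that the replicates are separate animals, so the p-values measure only the spread between these libraries, which may be technical.

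A ribosome holds 1 copy of nearly every one of these proteins, and cells make them in matched amounts, since a ribosomal protein left without a partner is degraded. Their mRNAs are short and abundant, and most begin with a run of pyrimidines at the 5′ end, the terminal oligopyrimidine (TOP) motif. Through this motif the kinase complex mTORC1 controls how much of each mRNA is translated, so a change in ribosome production need not show in the mRNA level. Growing and dividing cells make more ribosomes than resting cells, and free Rpl5 and Rpl11 bind the p53 inhibitor Mdm2 when assembly fails.

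The start of transcription shows what the members have in common apart from their names. RefSeq promoter sequence (GRCm38.p6) was at hand for 69 of the 89 members. The windows shown run from 60 bases before to 20 bases after the annotated start and belong to genes described further on. Capitals mark the longest run of C and T that touches the bases from 5 before to 6 after the start, the place of the TOP motif. Rps6 is at chr4:86857348-86857427 (minus strand), Rpl13a at chr7:45128726-45128805 (minus strand), Rplp2 at chr7:141447591-141447670 (plus strand), Rps9 at chr7:3703981-3704060 (plus strand) and Rps27l at chr9:66946026-66946105 (plus strand). Rps3, at chr7:99483690-99483769 (minus strand), and Rpl35a, at chr16:33056393-33056472 (plus strand), are shown because their runs at the annotated start are short.
Rps6: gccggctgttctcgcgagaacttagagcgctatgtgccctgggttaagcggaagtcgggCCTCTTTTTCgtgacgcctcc
Rpl13a: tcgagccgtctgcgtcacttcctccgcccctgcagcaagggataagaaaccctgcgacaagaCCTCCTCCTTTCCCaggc
Rplp2: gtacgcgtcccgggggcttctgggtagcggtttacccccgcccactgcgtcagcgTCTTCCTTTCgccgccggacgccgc
Rps9: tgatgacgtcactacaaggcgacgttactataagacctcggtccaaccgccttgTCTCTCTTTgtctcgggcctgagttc
Rps27l: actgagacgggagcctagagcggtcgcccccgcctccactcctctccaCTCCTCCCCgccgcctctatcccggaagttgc
Rps3: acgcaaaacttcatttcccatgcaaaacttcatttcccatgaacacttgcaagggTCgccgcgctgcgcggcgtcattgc
Rpl35a: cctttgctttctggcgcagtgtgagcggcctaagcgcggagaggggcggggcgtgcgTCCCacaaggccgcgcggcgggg

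The run reached 14 bases in Rpl13a, 10 bases in Rps6 and Rplp2, and 9 bases in Rps9 and Rps27l, against 4 bases in Rpl35a and 2 bases in Rps3. The Rps27l run began at -12 from the annotated start and ended before that start, so as annotated it is not in the mRNA. A run of at least 8 bases was found in 23 of the 69 members (33.3%), against 9.75% of the 14793 other tested genes in the promoter table and 9.63% of all its 27025 genes. A run of at least 5 bases was found in 37 members (53.6%), against 33.0% of the other tested genes and 32.9% of all genes. In the whole promoter of 250 bases before to 50 bases after the start, on either strand, CGGAAG, the core of sites for ETS factors, was found in 44 members (63.8%), against 25.6% of the other tested genes and 17.2% of all genes. AAGATGG, the core of the YY1 site, was found in 9 members (13.0%), against 6.55% of the other tested genes and 6.48% of all genes. TATAAA, the TATA box, was found in 7 members (10.1%), against 8.82% of the other tested genes and 14.2% of all genes. Long pyrimidine runs and CGGAAG were thus more frequent among the members than in either comparison set, while TATAAA was not. A match describes the letters of the window and is no measured site.

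The microRNA that the KO mice lack is shown because its seed decides which mRNAs it can pair with. The mature miR-92b-3p (RefSeq, GRCm38.p6, chr3:89227126-89227147, minus strand) has its seed, bases 2 to 8, in capitals.
mmu-miR-92b-3p: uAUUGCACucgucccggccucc

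The sense strand of the longest annotated coding transcript was searched over its whole length for GTGCAAT, which pairs with the seed, and TGCAATA, which overlaps it by 6 letters. One or both were found in 6 of the 86 members tested (6.98%), namely Rpl13, Rpl15, Rpl37a, Rps20, Rps23 and Rps24. All 6 had log2 fold changes below 0, as did most members without a match. Among 15370 other tested genes, 20.99% held one or both, but their transcripts had a median length of 3065 nt, against 925.5 nt for the members. A longer transcript gives more chances of a match, so the shares are not on an equal footing.

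The 6 libraries held 44476507, 46804547 and 50769801 counts in KO kidneys and 38738204, 47893534 and 51932509 counts in WT kidneys. Of the 34714 genes, 18927 were tested, and 86 of the 89 members were among them. Levels are in CPM, counts of a gene relative to the library total after TMM scaling, which sets libraries to a common level over most genes. The markers of kidney epithelium (14 of 14 in the table, none at 0 in all libraries) summed to 2536 to 8068 CPM in KO kidneys and 3752 to 7264 CPM in WT kidneys, so the labelled tissue was present. In whole kidneys, fewer cells of a type and less RNA per cell cannot be told apart.

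The tested members averaged 0.758 to 947 CPM over the libraries, with a median of 307 CPM, against a median of 20.3 CPM for all tested genes. Divided by the length of the longest annotated transcript, the level was highest in Rplp1 (897 CPM per kb), Rps3a1 (872 CPM per kb) and Rpl13a (859 CPM per kb). Among the ribosomal proteins that are not paralogs it was lowest in Rpl21 (36.1 CPM per kb), Rpl35a (42.9 CPM per kb) and Rps15a (46.3 CPM per kb). For Rps15a and Rpl35a the longest annotated transcripts, of 5179 nt and 2858 nt, set that place. Divided by coding length, Rps15a stood at 615 and Rpl35a at 372 CPM per kb of coding sequence, while Rpl21 stood at 139 CPM per kb of coding sequence. The order of these levels rests on which transcript is taken as the length. The GENCODE M21 annotation lists 300 ribosomal protein pseudogenes named with -ps, whose sequences are close to those of the members. How reads shared with them were counted is not given in the sources used here, so each member's level is uncertain to that degree.

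No ribosomal protein gene passed the test between KO and WT kidneys. With edgeR's quasi-likelihood test and Benjamini-Hochberg adjustment over all genes, 0 of the 86 members were called, against a background of 0% higher and 0% lower in KO, and the smallest adjusted p among them was 0.627. The smallest adjusted p of any gene was 0.0568. At an unadjusted p under 0.05, 2 members stood out (2.33%), both lower in KO, against 7.9% of all tested genes, of which 4.38% were higher and 3.52% lower in KO. The DESeq2 Wald test called 0.328% of the genes with an adjusted p (0.18% higher and 0.148% lower in KO) and 0 members. Limma-voom called 0.0159% of all tested genes (0.00528% higher and 0.0106% lower in KO) and 0 members. Members were thus no more often past any of these thresholds than other genes.

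The members' log2 fold changes lay mostly on 1 side of 0. Of the 86, 75 were below 0 and 11 above 0 (87.2% below), against 52.3% of all tested genes below 0. Their median log2 fold change was -0.19, with quartiles of -0.32 and -0.11, against a median of -0.02 for all tested genes. The large subunit had a median of -0.21 with 38 of 43 below 0, and the small subunit a median of -0.15 with 27 of 31 below 0. The 3 stalk proteins had a median of -0.01, and the 8 tested paralogs and retrogenes a median of -0.39 with 7 below 0. The lowest and the highest values were -0.93 for Rps27a and 0.27 for Rpl3. The size of the median rested on single libraries, as it was -0.39 without KO replicate 3, -0.32 without WT replicate 2, -0.08 without KO replicate 2 and -0.10 without WT replicate 3.

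**Figure D1:**
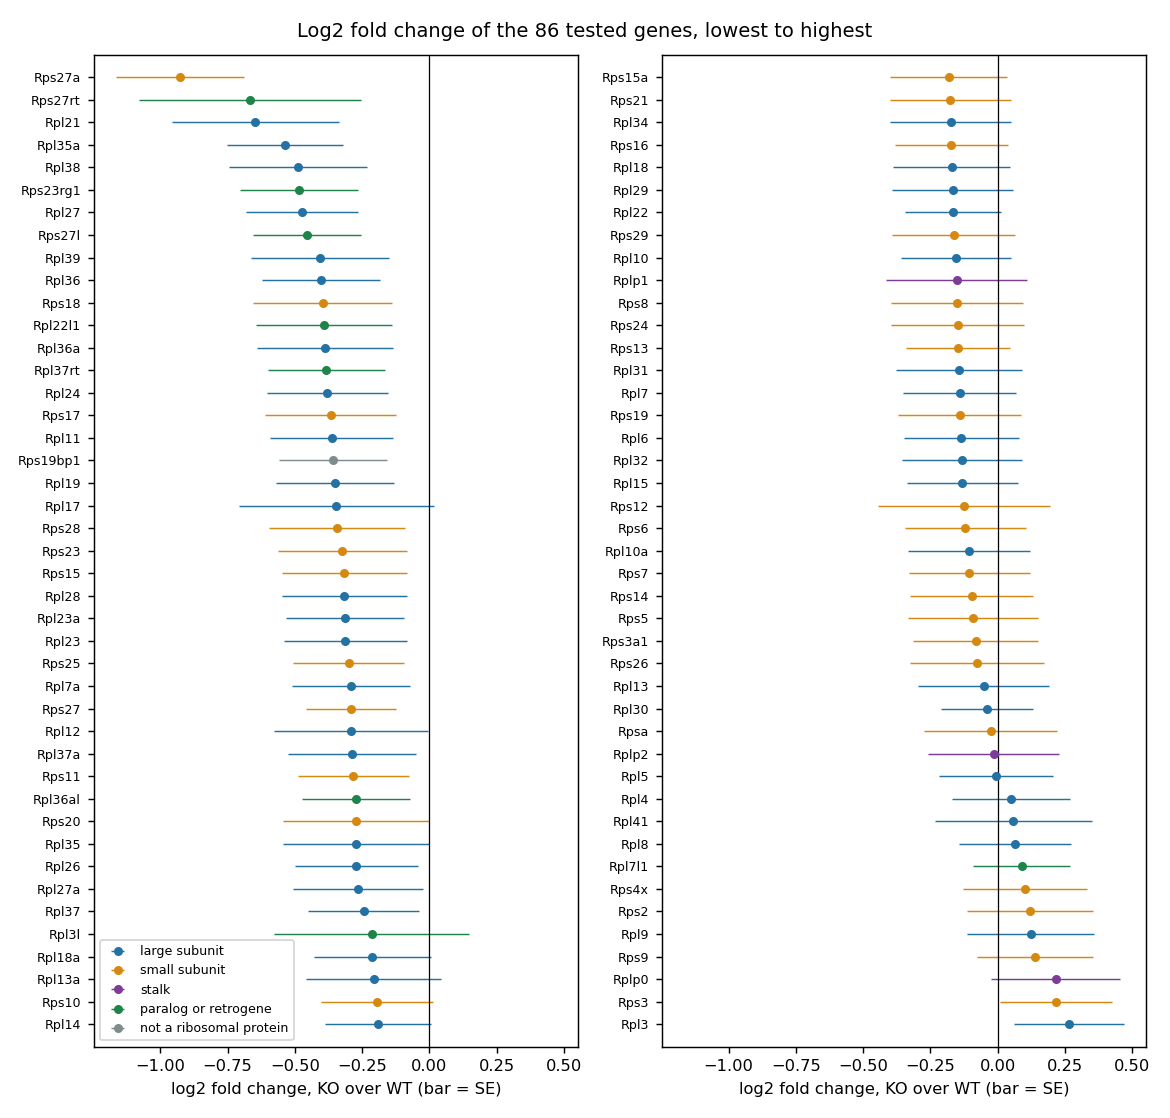
Log2 fold change, KO over WT, of each of the 86 tested members on the x axis, in rank order, with points coloured by class and bars of 1 SE. Values run from -0.93 (Rps27a) to 0.27 (Rpl3), and 75 of the 86 points lie below 0.

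The members also differed together between libraries of the same group, by more than the shift between the group medians. Members took 2.49%, 2.28% and 3.43% of all counts in KO replicates 1, 2 and 3, against 3.50%, 2.55% and 3.10% in WT replicates 1, 2 and 3. The group means were 2.74% ± 0.610 in KO and 3.05% ± 0.475 in WT (SD, n = 3 each), a difference of -0.315 percentage points, and the groups overlapped. KO replicate 3 lay among the high WT libraries, and WT replicate 2 lay among the low KO libraries. Leaving out 1 library at a time gave differences of -0.661 to -0.0888 percentage points.

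Gene by gene the pattern was the same. Relative to its own mean log2 CPM over the 6 libraries, the median member stood at -0.20, -0.33 and 0.25 in KO replicates 1, 2 and 3, against 0.25, -0.21 and 0.29 in WT replicates 1, 2 and 3. The number of the 86 members above their own mean was 6, 2 and 82 in the KO replicates, against 73, 1 and 86 in the WT replicates. KO replicate 2 held the lowest value of 69 members, and WT replicate 1 held the highest value of 34 members. The median SD of log2 CPM within a group was 0.31 in KO and 0.30 in WT for the members, against 0.20 in KO and 0.29 in WT for all tested genes. The large subunit, here taken with its stalk, and the small subunit kept their proportion throughout. The summed CPM of the large subunit with its stalk was 1.38, 1.36 and 1.34 times that of the small subunit in the KO replicates, against 1.39, 1.37 and 1.37 times in the WT replicates.

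**Figure D2:**
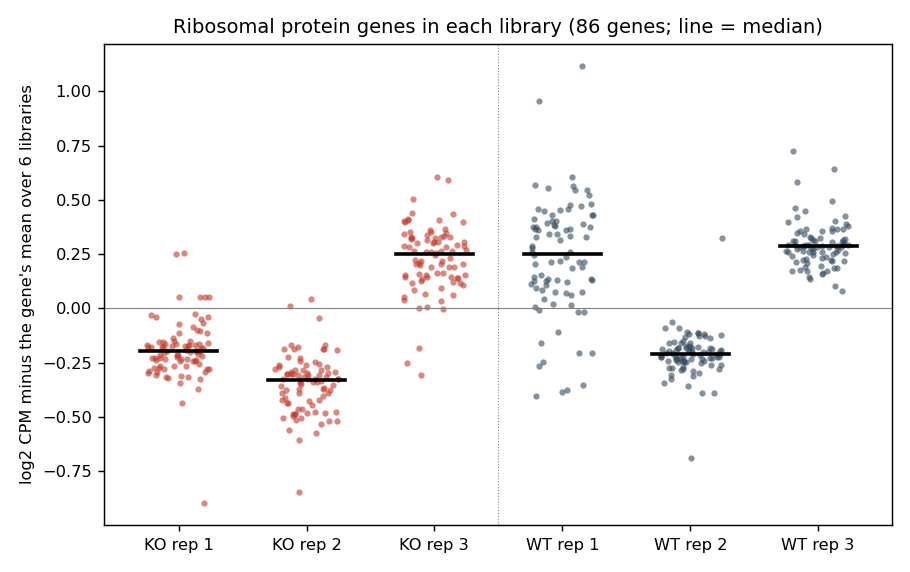
Each point is 1 of the 86 tested members in 1 library, as its log2 CPM minus that gene's mean over the 6 libraries (y axis), with KO libraries in red, WT libraries in blue-grey and a line at the median. Most members are high in KO replicate 3, WT replicate 1 and WT replicate 3 and low in the other 3 libraries, and the medians run from -0.33 to 0.29.

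Of the other measures of the libraries, the proliferation markers were high in the same libraries as the members, and the rest were so in part or not at all. The 11 proliferation markers, all in the table and all tested, summed to 339, 372 and 746 CPM in the KO replicates, against 573, 356 and 459 CPM in the WT replicates. Their sums were highest in KO replicate 3, WT replicate 1 and WT replicate 3, where the members were high. The order within the high and the low libraries differed, as KO replicate 2 had the lowest member share of counts but not the lowest sum. Other genes with annotated transcripts under 1000 nt had a median log2 deviation of -0.05, -0.22 and -0.13 in the KO replicates, against 0.29, -0.03 and 0.19 in the WT replicates. Those short transcripts were high in WT replicates 1 and 3 as the members were, but not in KO replicate 3, where the members were high. The 10 fibroblast markers summed to 2774, 5091 and 8170 CPM in the KO replicates, against 4717, 2856 and 2148 CPM in the WT replicates, where the lowest sum was in WT replicate 3, a library in which the members were high. Kidney epithelial markers summed to 8068, 5911 and 2536 CPM in the KO replicates, against 3752, 7264 and 6982 CPM in the WT replicates. They were lowest in KO replicate 3 and WT replicate 1, but not low in WT replicate 3, another library in which the members were high. Leukocyte markers (16 of 16 tested) summed to 1303 to 1548 CPM in KO and 973 to 1147 CPM in WT, without overlap. Single leukocyte markers went both ways, with 10 above 0 and 6 below 0 and a median log2 fold change of 0.13. The part of these measures in the members' values was not tested.

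**Figure D3:**
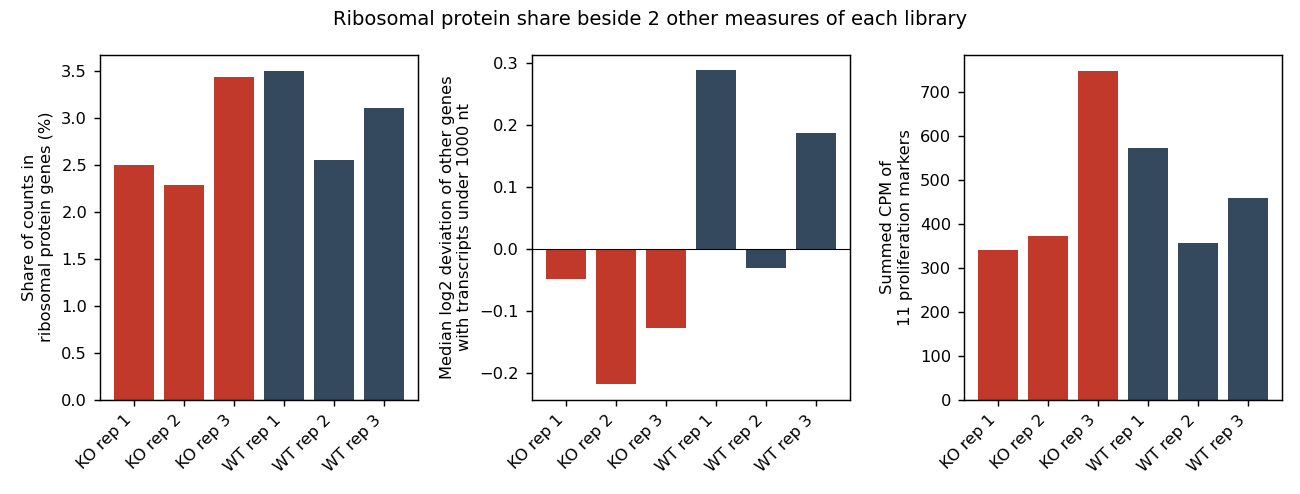
Bars give, for each library, the percent of all counts in the 89 members (left), the median log2 deviation of other genes with transcripts under 1000 nt (middle) and the summed CPM of 11 proliferation markers (right), with KO in red and WT in blue-grey. KO replicate 3, WT replicate 1 and WT replicate 3 are high on the left and on the right, and in the middle KO replicate 3 is at -0.13.

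The fold changes of the members were related to the length of the coding sequence, mainly because the longest members lay nearer to 0. The 28 members with the shortest coding sequences, of 138 to 399 nt, had a median log2 fold change of -0.27 with 27 below 0. The next 28, of 405 to 582 nt, had a median of -0.30 with 27 below 0, and the 28 longest, of 582 to 1257 nt, a median of -0.10 with 19 below 0. Other tested genes of the same 3 length ranges had medians of -0.19, -0.09 and -0.02, so the middle members lay farthest from other genes of their length. Across 84 members with a coding length, Pearson's r of log2 fold change and log10 coding length was 0.46 and Spearman's rho 0.50. Across 15461 tested genes, r was 0.19 and rho 0.23. Genes share their libraries and are not independent replicates, so these are descriptions.

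With the trend of each library's values on annotated transcript length removed before the fit, the members' median log2 fold change was -0.02, with 48 of 86 below 0, and the median of all tested genes was also -0.02. In that fit the median was -0.02 for the large subunit and stalk together, 0.02 for the small subunit and -0.14 for the paralogs and retrogenes. With the trend on coding length removed instead, an alternative chosen after seeing the data, the members' median was -0.10 with 67 below 0, against -0.04 for all tested genes. The spread between libraries stayed after the removal by transcript length, with median member deviations of -0.18, -0.20 and 0.33 in the KO replicates, against 0.08, -0.22 and 0.18 in the WT replicates.

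**Figure D4:**
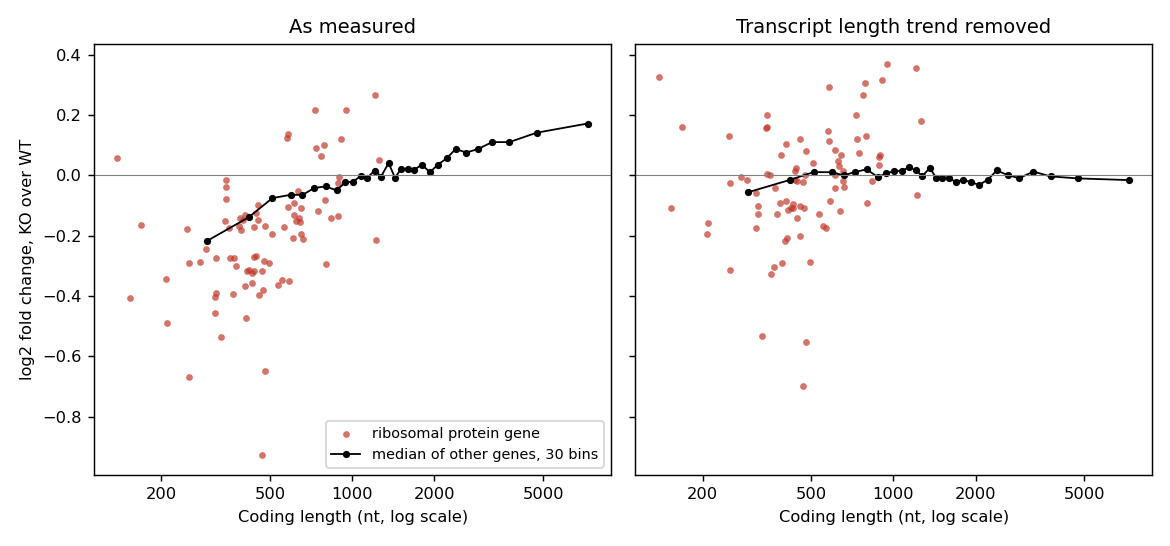
Log2 fold change, KO over WT (y axis), against coding length in nt on a log scale, for the 84 members with a coding length (red points) and the median of other tested genes in 30 bins (black line), as measured (left) and with the transcript length trend removed (right). Short genes lie below 0 on the left in both sets, and on the right the members spread around 0.

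Among single members, Rps27a (chr11:29545842-29548040, GRCm38.p6) had the lowest fold change and the smallest p. It makes a fusion of ubiquitin with the small subunit protein eS31, which is cut apart after translation. Rps27a had 120, 152 and 224 CPM in the KO replicates, against 328, 281 and 335 CPM in the WT replicates. All 3 KO libraries were below all 3 WT libraries, including KO replicate 3, in which most members were high. The means were 165 ± 53.5 CPM in KO and 315 ± 29.7 CPM in WT (SD, n = 3 each), a ratio of 0.526 and a log2 fold change of -0.93 ± 0.24 (SE). Its unadjusted p was 0.00481 and its adjusted p 0.627 in edgeR's quasi-likelihood test, so it did not pass. With DESeq2 its adjusted p was 0.0817, the lowest over the alternatives, which ranged up to 0.971. The log2 fold change lay between -1.21 and -0.74 with 1 library left out at a time, and was -0.70 with the transcript length trend removed.

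Genes that share the ubiquitin product or the locus were set beside it. The polyubiquitin gene Ubb had a log2 fold change of -0.13 ± 0.20 (SE). Clhc1, whose annotation overlaps Rps27a on its side of higher coordinates, was under 1 CPM in all 6 libraries, with a log2 fold change of -0.67 ± 0.39 (SE). The neighbour Mtif2 had 48.4, 46.5 and 42.9 CPM in the KO replicates, against 63.7, 52.9 and 50.4 CPM in the WT replicates, with a log2 fold change of -0.28 ± 0.14 (SE). None of these 3 genes passed the test.

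Only Rps27a and Rps27l had KO and WT values that did not overlap, both lower in KO, which is 2 of 86 members (2.33%), against 16.1% of all tested genes, of which 8.95% were higher and 7.2% lower in KO. Rps27l (chr9:66944624-66949522), a paralog of Rps27 known as a p53 target, had 84.2, 76.0 and 82.3 CPM in the KO replicates, against 101, 85.5 and 146 CPM in the WT replicates. The highest KO value and the lowest WT value were close together, and WT replicate 3 stood above the rest. Its log2 fold change was -0.46 ± 0.20 (SE), or -0.18 with the transcript length trend removed and 0.07 with replicate 3 of both groups also left out. Rps27 itself (chr3:90212667-90213648) had 127, 125 and 151 CPM in the KO replicates, against 157, 141 and 194 CPM in the WT replicates, with overlapping groups and a log2 fold change of -0.29 ± 0.17 (SE). The retrogene Rps27rt had a log2 fold change of -0.67 ± 0.41 (SE), with 47.1 CPM in WT replicate 1 and 12.0 to 25.9 CPM in the other 5 libraries. Rps27 and Rps27rt are near-identical copies, so their counts may be divided in error.

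**Figure D5:**
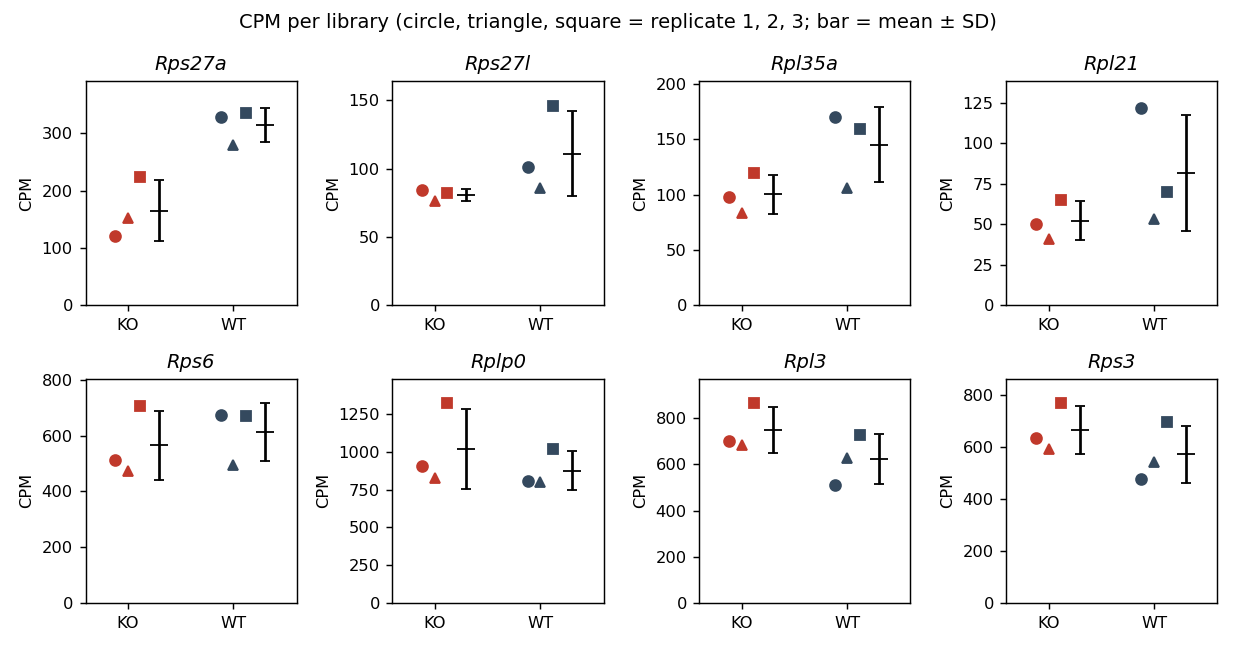
CPM (y axis, from 0) of 8 members in the 3 KO libraries (red) and the 3 WT libraries (blue-grey), with the mean ± SD beside each group. Rps27a is at 120 to 224 CPM in KO and 281 to 335 CPM in WT, and in the other genes except Rps27l the groups overlap.

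In the large subunit, Rpl35a (chr16:33056453-33060189), a protein whose human counterpart is mutated in Diamond-Blackfan anaemia, had 97.6, 83.5 and 119 CPM in the KO replicates, against 170, 106 and 159 CPM in the WT replicates. WT replicate 2 lay within the KO range. Its log2 fold change was -0.54 ± 0.22 (SE) with an unadjusted p of 0.0386 and an adjusted p of 0.627 by edgeR's quasi-likelihood test, and it was -0.53 with the transcript length trend removed. Rpl21 (chr5:146832890-146837032) had 50.2, 41.2 and 65.0 CPM in the KO replicates, against 122, 52.98 and 70.2 CPM in the WT replicates. Its log2 fold change of -0.65 ± 0.31 (SE) rested on WT replicate 1, and was between -0.88 and -0.24 over the fits that left out 1 library. Rpl27 had 145, 114 and 163 CPM in the KO replicates, against 228, 149 and 209 CPM in the WT replicates, and a log2 fold change of -0.47 ± 0.21 (SE). Rps23rg1, a retrogene of Rps23, had 16.2 to 23.8 CPM in KO and 20.8 to 32.0 CPM in WT, and a log2 fold change of -0.48 ± 0.22 (SE).

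The 6 members with the smallest p among those above 0 were Rpl3, Rps3, Rplp0, Rps9, Rpl9 and Rps2, and each had an unadjusted p of at least 0.230. Rpl3 (chr15:80077781-80083406), which lies at the peptidyl transferase centre, had 702, 682 and 865 CPM in the KO replicates, against 512, 628 and 728 CPM in the WT replicates, and a log2 fold change of 0.27 ± 0.20 (SE). Rps3, which lies at the mRNA entry of the small subunit and also has a role in DNA repair, had 632, 590 and 767 CPM in the KO replicates, against 477, 540 and 693 CPM in the WT replicates, and a log2 fold change of 0.22 ± 0.21 (SE). In both genes WT replicate 1 was the lowest library, although it held the highest value of 34 other members. Rps9, Rpl9 and Rps2 had log2 fold changes of 0.14, 0.12 and 0.12, and each was below 0 without KO replicate 3.

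The stalk, through which elongation factors are recruited, lay nearer to or above 0 compared with most members. Its base Rplp0 had 905, 829 and 1321 CPM in the KO replicates, against 808, 798 and 1023 CPM in the WT replicates, and a log2 fold change of 0.22 ± 0.24 (SE). Rplp1 had 366, 330 and 576 CPM in the KO replicates, against 508, 365 and 541 CPM in the WT replicates, and a log2 fold change of -0.15 ± 0.26 (SE). Rplp2 had 212, 186 and 319 CPM in the KO replicates, against 232, 199 and 292 CPM in the WT replicates, and a log2 fold change of -0.01 ± 0.24 (SE). All 3 had their highest value in KO replicate 3, and the SE exceeded the fold change for Rplp0, Rplp1 and Rplp2 alike.

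Members with known roles outside translation or in disease also lay within their replicate spread. Rps6, the target of S6 kinase downstream of mTORC1, had 514, 474 and 706 CPM in the KO replicates, against 674, 494 and 672 CPM in the WT replicates, and a log2 fold change of -0.12 ± 0.23 (SE). Rpl5 and Rpl11, the pair that binds Mdm2, had log2 fold changes of -0.01 ± 0.21 and -0.36 ± 0.23 (SE). Rpl11 ranged over 246 to 352 CPM in KO and 277 to 436 CPM in WT, while Rpl5 ranged over 486 to 681 CPM in KO and 507 to 693 CPM in WT. Rpl13a, a member of the complex that silences inflammatory mRNAs after interferon γ, had 734, 679 and 1092 CPM in the KO replicates, against 1069, 766 and 1056 CPM in the WT replicates, and a log2 fold change of -0.21 ± 0.25 (SE). Rpsa, which is also known as the laminin receptor, had -0.03 ± 0.25 (SE). Rps19 and Rps14, whose losses underlie Diamond-Blackfan anaemia and the 5q- syndrome in humans, had -0.14 ± 0.23 and -0.10 ± 0.23 (SE), and Rpl10, needed for the last step of large subunit maturation, had -0.15 ± 0.20 (SE).

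Paralogs can stand in for their partners in some tissues. Rpl22l1, which Rpl22 represses in mouse cells, had 85.0, 71.1 and 128 CPM in the KO replicates, against 142, 93.6 and 137 CPM in the WT replicates, and a log2 fold change of -0.39 ± 0.25 (SE), beside -0.17 ± 0.18 (SE) for Rpl22. Rpl36a and its retrogene Rpl36al had log2 fold changes of -0.39 ± 0.25 and -0.27 ± 0.20 (SE). Rpl7l1, which acts in ribosome assembly, had 96.4, 95.7 and 98.7 CPM in the KO replicates, against 71.3, 87.3 and 115 CPM in the WT replicates, and was the only paralog above 0, at 0.09 ± 0.18 (SE). Rpl39 had a log2 fold change of -0.41 ± 0.26 (SE), Rps28 had -0.34 ± 0.25 (SE) and Rps4x, on the X chromosome, had 0.10 ± 0.23 (SE). Rpl37rt, a retrogene of Rpl37, had -0.38 ± 0.22 (SE), and Rps19bp1 had -0.36 ± 0.20 (SE).

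Paralogs known for testis or muscle were at or near 0. Rpl10l, which stands in for Rpl10 in male germ cells, had 0 counts in all 6 libraries. Rpl39l, the germ cell paralog of Rpl39, had 0, 2 and 12 counts in the KO replicates, against 0, 2 and 4 counts in the WT replicates. Rpl32l had 3 to 5 counts in each library, and these 3 genes were not tested. Rpl3l, the paralog of striated muscle, had 0.89, 0.60 and 0.62 CPM in the KO replicates, against 0.75, 0.63 and 1.06 CPM in the WT replicates, and a log2 fold change of -0.22 ± 0.36 (SE). Skeletal muscle markers summed to 1.85 to 2.19 CPM in KO kidneys and 6.93 to 9.13 CPM in WT kidneys. Of the 8 tested, 7 had an unadjusted p under 0.05 in edgeR's quasi-likelihood test, all lower in KO. That is 87.5%, against 3.52% of all tested genes in that direction. After adjustment edgeR called 0 of these markers, DESeq2 called 5, all lower in KO, and limma-voom called 2. The part of these markers in the Rpl3l values was not tested.

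The other genes of the ribosome's life were taken from lists. Fau and Rack1, ribosomal proteins outside the rule, had log2 fold changes of -0.18 and 0.07. In all the lists of this paragraph together, 0 genes passed edgeR's adjusted threshold. The 75 tested ribosome biogenesis genes had a median log2 fold change of -0.07, where 29 were above and 46 below 0 and 4 at an unadjusted p under 0.05, 2 in each direction (5.33%, against 7.9% of all tested genes). The 20 genes of RNA polymerase I transcription had a median of -0.10, with 6 above and 14 below 0 and 2 at an unadjusted p under 0.05, both lower in KO (Taf1d and Polr2f), which is 10% of the list. The 36 initiation factors had a median of 0.01 with 18 on each side of 0, and the 20 other TOP mRNAs, which share the pyrimidine motif but make no ribosomal protein, a median of -0.00 with 9 above and 11 below 0. The 10 chaperones of ribosomal proteins had a median of -0.18 with 8 below 0. The 9 tested elongation factors had a median of 0.19 with 5 above 0. Eef2, which moves the ribosome along the mRNA, had 2223, 1996 and 2683 CPM in the KO replicates, against 1182, 1866 and 2133 CPM in the WT replicates, and a log2 fold change of 0.41 ± 0.28 (SE).

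Genes of the pathways that control ribosomal protein mRNAs lay on both sides of 0, and edgeR called 0 of them. Of 23 genes of mTORC1 and TOP mRNA translation, 16 were above and 7 below 0. At an unadjusted p under 0.05, 4 were higher and 2 lower in KO (26.1%, against 7.9% of all tested genes). The gene lists were chosen with earlier results of these data known, so the shares in this paragraph are no test of a pathway. Castor2, a relative of the arginine sensor Castor1, had 41.9, 45.6 and 36.0 CPM in the KO replicates, against 16.4, 23.6 and 19.5 CPM in the WT replicates. Its log2 fold change was 1.05 ± 0.17 (SE), which DESeq2 called and edgeR did not. Sesn2, a leucine sensor that restrains mTORC1, and Eif4ebp2, a repressor of cap-dependent initiation, had log2 fold changes of 0.69 ± 0.18 and 0.52 ± 0.16 (SE). Rptor, the mTORC1 subunit that binds its substrates, had 0.34 ± 0.13 (SE). The 2 lower in KO were Rps6kb1, an S6 kinase, at -0.34 ± 0.12, and Eif4ebp3, a repressor of the same family as Eif4ebp2, at -0.53 ± 0.20 (SE). Of 14 factors tied to ribosomal protein promoters, 8 were above and 6 below 0. At an unadjusted p under 0.05 there were 2, both higher in KO (Sp1 and Zbtb7a), which is 14.3%, against 4.38% of all tested genes in that direction. Sp1 had 0.36 ± 0.13, Zbtb7a 0.37 ± 0.14 and Myc -0.43 ± 0.20 (SE). Of 12 genes of the p53 response, 7 were above and 5 below 0. At an unadjusted p under 0.05, 2 were higher and 1 lower in KO (25%, against 7.9% of all tested genes). Zmat3 had 0.53 ± 0.18, Eda2r 0.85 ± 0.33 and Mdm4 -0.47 ± 0.20 (SE), beside Rps27l at -0.46.

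The ribosomal proteins of mitochondria, which serve a separate ribosome, had a similar median and a smaller spread in KO. Of 78 tested, 72 were below 0 and 6 above 0. Their median log2 fold change was -0.22, beside -0.19 in the cytosolic set. At an unadjusted p under 0.05 there were 13 (16.7%), all lower in KO, against 2.33% of the cytosolic members and 3.52% of all tested genes in that direction, and none passed the adjusted threshold. Their groups did not overlap in 11, all lower in KO (14.1%, against 7.2% of all tested genes). Their median SD of log2 CPM within a group was 0.13 in KO and 0.27 in WT, against 0.31 in KO and 0.30 in WT for the cytosolic members. With the transcript length trend removed, their median was -0.16 with 60 below 0, against -0.02 with 48 below 0 in the cytosolic set. Mrps21 had 39.6, 34.4 and 37.0 CPM in the KO replicates, against 60.9, 40.2 and 58.2 CPM in the WT replicates, and a log2 fold change of -0.52 ± 0.18 (SE).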

How the data were processed

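The authors deposited raw whole-number counts per gene symbol, 1 column per library, in 1 table. The submitters' processing notes name GRCm38 and mm10. Which programs aligned and counted the reads, and whether strand was used, is not given in the sources used here, so overlapping or near-identical genes may share counts. RNA (1.3 ug) was made into libraries with an mRNA kit, per the labels' protocols. Members, gene lists and tests were chosen with earlier results of these data known.

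Genes were filtered with filterByExpr, scaled by TMM and tested with edgeR 4.0.16 (quasi-likelihood, robust, group as the only term) in R 4.3.3, with Benjamini-Hochberg adjustment over 18927 genes and a threshold of 0.05. Tested genes held 99.96% of the counts, and the biological coefficient of variation was 26.9%. SE is the log2 fold change over the root of F, and log2 CPM used a prior count of 2. Lengths came from GENCODE M21, and sequences and coordinates from RefSeq GRCm38.p6. Length trends were removed with a loess offset (span 0.5). Genes were named by a rule that took the stalk, known members and paralogs, the 6 smallest p in each direction and the 3 extremes of CPM per kb, and up to 3 genes per other list. Rpl37rt, Rptor, Rps6kb1, Eif4ebp3 and the genes set beside Rps27a were added after their values were seen. The alternatives were other scalings and filters, DESeq2 1.42.0, limma-voom 3.58.1, length trends, the replicate number as a block, and libraries left out. The pipeline was tested on simulated data. Some genes that the lists name are not reported here.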

Additional observations from a re-analysis of the deposited data

How the results depend on the processing

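No ribosomal protein gene was called under any alternative run. The number of called genes over all genes was 0 and became 62 with DESeq2, 3 with limma-voom, 2 with no filter, and 1 each with the replicate block, with the length trend removed in the fit with the replicate block, with replicate 3 of both groups left out, and with the length trend removed and replicate 3 of both groups left out. With 1 library left out it was 0 to 1. The members' median log2 fold change was -0.39 to -0.08 with 1 library left out, -0.29 without replicate 3 of both groups (chosen after seeing the data), -0.22 with upper-quartile factors, -0.13 with limma-voom and -0.19 with the replicate block. Groups did not overlap in 2 members, and in 3 with library size alone. The share of counts differed by -0.661 to -0.0888 percentage points with 1 library left out.

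Same-numbered KO and WT libraries had correlations of -0.28, 0.18 and -0.29 of their deviations from the group means. With 3 libraries per group, these values cannot show whether same-numbered libraries were matched. The main fit used no pairing.

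Some named members took the other sign under some alternatives, and none of them had passed the test. Most had log2 fold changes near 0, but Rps27l (-0.46) and Rps27 (-0.29) did not, and both were above 0 with the transcript length trend removed and replicate 3 of both groups left out. With the transcript length trend removed, Rplp1 was 0.16, Rplp2 0.20, Rpsa 0.061, Rps6 0.074, Rpl5 0.070, Rpl13a 0.0010, Rps14 0.12, Rpl10 0.067 and Rps3a1 0.13. With that trend removed in the fit with the replicate block, Rplp1 was 0.12, Rplp2 0.18, Rpsa 0.035, Rps6 0.059, Rpl5 0.068, Rps14 0.10, Rpl10 0.069 and Rps3a1 0.11. With the coding length trend removed, Rplp2 was 0.13, Rpl5 0.020 and Rps14 0.015. With replicate 3 of both groups left out, Rpl5 was 0.0078 and Rpl3l 0.11. With the transcript length trend removed and replicate 3 of both groups left out, Rplp2 was 0.087, Rpl5 0.063, Rps14 0.014, Rpl10 0.076, Rpl3l 0.24, Rps27 0.022, Rps27l 0.066 and Rps3a1 0.037. With no filter, Rpl5 was 0.0028. With 1 library left out, the ranges were Rpl3l -0.42 to 0.028, Rpl5 -0.15 to 0.15, Rpl7l1 -0.058 to 0.29, Rpl9 -0.066 to 0.34, Rplp0 -0.015 to 0.35 and Rplp2 -0.28 to 0.15. They were Rps14 -0.31 to 0.029, Rps2 -0.095 to 0.24, Rps3a1 -0.29 to 0.054, Rps4x -0.095 to 0.26, Rps9 -0.0084 to 0.30 and Rpsa -0.28 to 0.11.

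The cause of these changes was not tested. The limits are the depth of 38738204 to 51932509 counts, the 3 libraries per group and a spread between libraries of 0.31 in KO and 0.30 in WT (median SD of log2 CPM). The members' median deviation itself varied within groups with a pooled SD of 0.29 on the log2 scale.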
